A study of Mus musculus with 5 samples.

Results

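The mitochondrial carriers of the SLC25 family were examined in mouse liver after 2 related drugs. Members were all genes on the array whose symbol is Slc25a followed by a number, apart from Slc25a1 and Slc25a20, which gave 45 genes with 103 probes among 36870 gene names with 56605 probes. The animals were female BALB/c mice 6 weeks of age, dosed intraperitoneally, and livers were taken at 6 hr. One group received vehicle. A second received 300 mg/kg troglitazone (TGZ), and another that dose of TGZ together with 700 mg/kg of buthionine sulfoximine (BSO). The fourth group received rosiglitazone (RGZ) at 300 mg/kg and the fifth RGZ at that dose with BSO at 700 mg/kg. No group received BSO alone. Each group was 1 pool of RNA from 6 animals on 1 single-colour Agilent array, without replicates, and no difference was tested. The precision of every value is limited by there being 5 arrays.

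SLC25 proteins sit mostly in the inner membrane of mitochondria and exchange nucleotides, phosphate, amino acids, carboxylates, cofactors and metal ions between the matrix and the cytosol. In the liver they link the matrix to the urea cycle, gluconeogenesis, fatty acid oxidation and heme synthesis, whose steps are divided between the compartments. TGZ and RGZ are both thiazolidinediones, ligands of the nuclear receptor PPAR gamma, and differ in the side chain: TGZ carries a chromanol group like that of vitamin E and RGZ an aminopyridine. BSO inhibits glutathione synthesis, and glutathione enters mitochondria only by transport.

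A gene was read from its brightest probe, and its signal was divided by the 75th percentile of the array's probes, so a scaled signal of 10.4 means 10.4 times that percentile. Levels of different genes are not compared, because probes differ in brightness. A difference is the log2 ratio of scaled signals. Its 95% interval, given in parentheses, is the scanner software's error of both spots and leaves out variation between animals, pools and labelling. Carriers with a difference of 2-fold or more were counted. On each array 51.9% to 55.1% of probes were well above background, the 75th percentile lay between 141 and 208 intensity units, no spot was saturated, and no spot of a carrier was flagged as an outlier. All 6 hepatocyte markers, Alb, Apoa1, Ttr, Serpina1a, Tat and Cps1, were well above background on all 5 arrays, with a summed scaled signal of 4424 to 6254. Among markers of other cell types, the neutrophil list had a summed scaled signal of 108 with vehicle, 255 with TGZ, 255 with BSO plus TGZ, 118 with RGZ and 125 with BSO plus RGZ. Of its 8 genes, 7 were at least 2-fold higher in each TGZ group than with vehicle, 3 of the 6 with a value with RGZ and 4 with BSO plus RGZ. Its Csf3r, at 100.5 with vehicle and 115 with TGZ, made up most of the sum with vehicle. The cholangiocyte list summed to 1.17 with vehicle, 5.10 with TGZ, 4.50 with BSO plus TGZ, 0.658 with RGZ and 0.663 with BSO plus RGZ. Of its 4 genes, Sox9 was 13.4-fold higher with TGZ, Krt19 was 1.63-fold lower, and Krt7 and Epcam were not above background on any array. The list of 5 sinusoidal endothelial markers summed to 57.3 with vehicle, 33.5 with TGZ, 46.4 with BSO plus TGZ, 54.5 with RGZ and 49.9 with BSO plus RGZ. With TGZ its Lyve1 was 13.4-fold higher, Kdr 3.84-fold lower and Clec4g 2.10-fold lower. The 6 stellate cell and fibroblast markers summed to between 86.2 and 124, and Dcn, at 96.4, made up most of the sum with vehicle. Lrat among them was 4.62-fold lower with TGZ, while the others lay between -0.21 and 0.29 on the log2 scale. With RGZ, Col3a1 was 2.07-fold lower. With BSO plus RGZ, Col1a1 was 2.26-fold and Col3a1 2.50-fold lower. The erythroid list summed to 423 with vehicle, 431 with TGZ, 481 with BSO plus TGZ, 251 with RGZ and 264 with BSO plus RGZ. Hba-a1, at 409 with vehicle, made up most of it. T cell markers summed to 45.3, 46.0, 41.4, 27.9 and 24.4 in the same order, mostly from Cd4, at 38.6 with vehicle. Of the Kupffer cell and macrophage list, only Marco passed 2-fold with RGZ (3.43-fold) and BSO plus RGZ (3.59-fold), both higher. The part of other cell types in the values of the carriers was not tested. All 5 arrays were on 1 slide. In RNA from whole liver, fewer cells of a type and less RNA per cell cannot be told apart.

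Of the 45 carriers, 41 had a signal well above background on some array and 38 on all 5. Slc25a31, Slc25a41, Slc25a53 and Slc25a54 were above background on none and have no value. With TGZ, 8 carriers were at least 2-fold higher than with vehicle and 5 lower, 13 of 41 with a value (31.7%), where 19.6% of all genes with a value passed (10.1% higher and 9.52% lower). With BSO plus TGZ the counts were also 8 higher and 5 lower of 41 (31.7%, against 14.2% of all genes, 8.32% higher and 5.90% lower). RGZ gave 2 higher and 1 lower of 40, where 3.34% of all genes passed (1.65% higher and 1.68% lower). BSO plus RGZ gave 3 higher and 2 lower of 40 (12.5%, against 6.83% of all genes, 3.05% higher and 3.78% lower). At 1.5-fold, 24 carriers passed with TGZ (37.5% of all genes), 20 with BSO plus TGZ (31.1%), 8 with RGZ (13.6%) and 11 with BSO plus RGZ (22.7%). The median log2 difference of the carriers was near 0 in every comparison with vehicle, 0.02 with TGZ, 0.07 with BSO plus TGZ, -0.02 with RGZ and -0.04 with BSO plus RGZ, close to the medians of all genes, which ran from -0.05 to 0.02. The median size of the difference, whatever its sign, was 0.69 on the log2 scale with TGZ (0.42 over all genes), 0.51 with BSO plus TGZ (0.36), 0.22 with RGZ (0.22) and 0.43 with BSO plus RGZ (0.31). These 4 comparisons share the vehicle array, so a difference common to them is not an independent repeat.

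The split between higher and lower carriers depended on the scaling. When arrays were scaled to their spike-in RNA, the median of all genes shifted to -0.43 in the TGZ group and -0.22 in the group with BSO as well, and the split became 7 higher and 10 lower with TGZ and 7 higher and 6 lower with BSO plus TGZ. The values below are therefore relative to the bulk of genes on each array. At the 2-fold limit, Slc25a27 lay just inside with TGZ at -1.04 and Slc25a34 just outside at 0.92. With BSO plus TGZ these were Slc25a22 at 1.10 and Slc25a42 at 0.97, with RGZ Slc25a48 at -1.51 and Slc25a24 at -0.80, and with BSO plus RGZ Slc25a25 at 1.05 and Slc25a29 at 0.79.

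**Figure D1:**
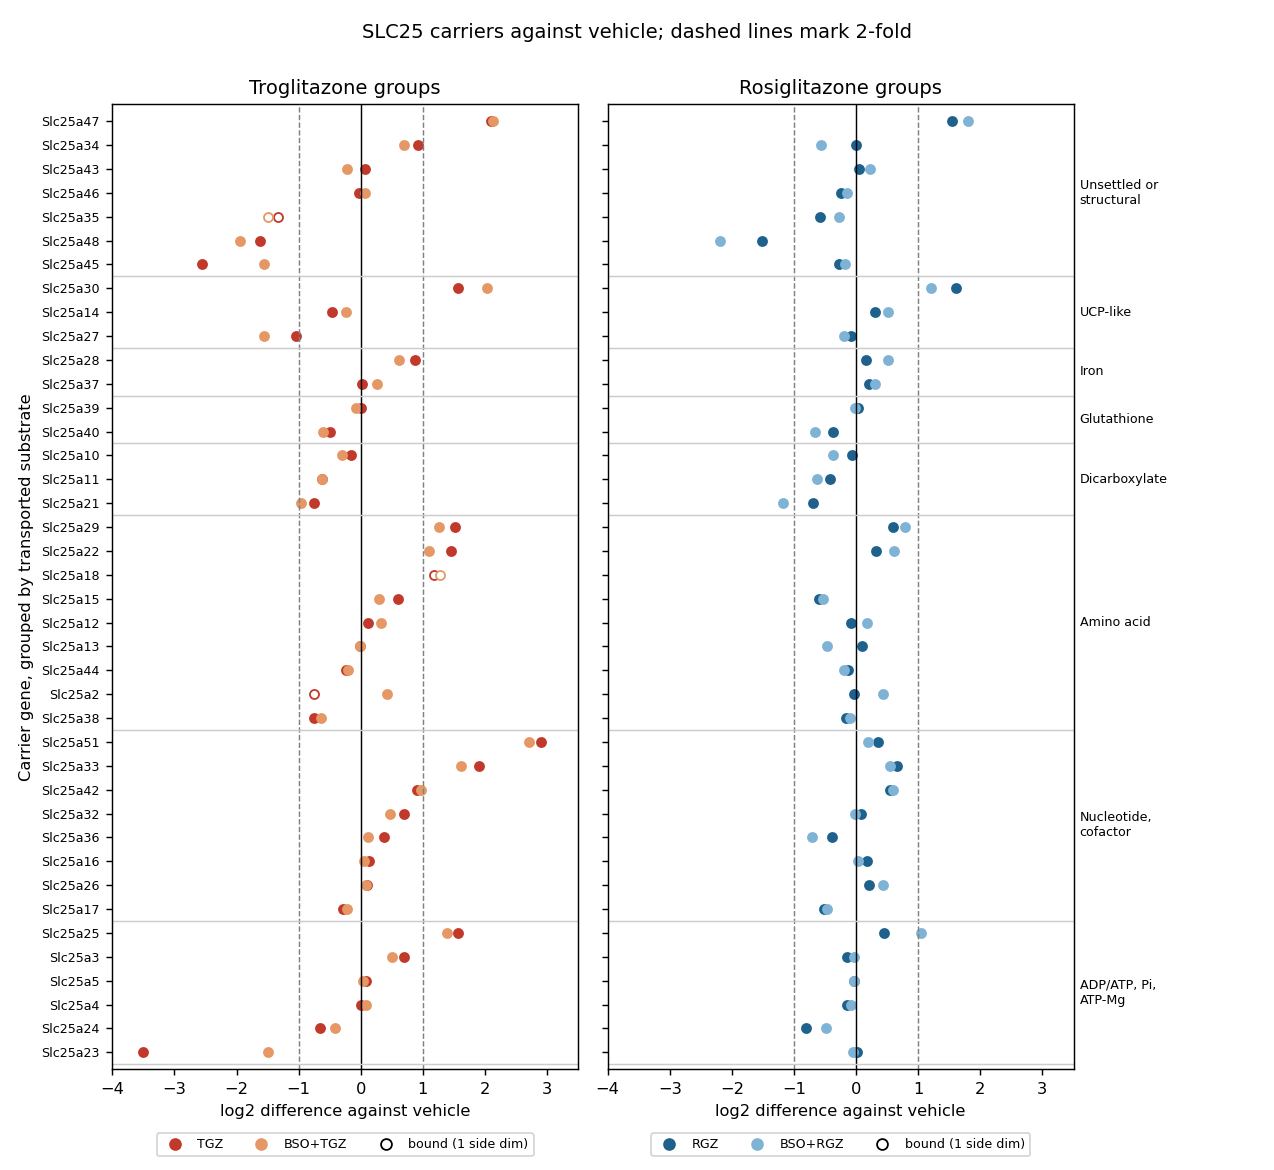
Log2 difference against vehicle (x axis) of 40 of the 41 carriers with a value, in rows grouped by transported substrate; the left panel shows TGZ and BSO plus TGZ and the right panel RGZ and BSO plus RGZ, open circles are bounds where 1 of the arrays was not well above background, and dashed lines mark 2-fold. The TGZ values spread from -3.51 to 2.91 and the RGZ values from -1.51 to 1.61.

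Slc25a47, Slc25a30 and Slc25a48 passed 2-fold in every treated group, and Slc25a33 and Slc25a45 were far from vehicle with TGZ. To show the DNA just before these genes, the 250 bases upstream of each start site are printed 5′ to 3′ in the direction of the gene, from the RefSeq promoter table (build GRCm38.p6), which holds 34 of the 45 carriers and not Slc25a51. Capitals mark matches to 8 motifs searched on both strands: TGACGTCA (CRE), TGATGNAA (ATF4 or C/EBP composite), CACGTG (E-box), TGANTCA (AP-1), AGGTCA (nuclear receptor core site), a direct repeat of that core with 1 base between the copies (bound by PPAR, and overlapping the core site), the palindromic NRF1 site and the NF-kappaB site.
Slc25a47, chr12:108850879-108851128, plus strand: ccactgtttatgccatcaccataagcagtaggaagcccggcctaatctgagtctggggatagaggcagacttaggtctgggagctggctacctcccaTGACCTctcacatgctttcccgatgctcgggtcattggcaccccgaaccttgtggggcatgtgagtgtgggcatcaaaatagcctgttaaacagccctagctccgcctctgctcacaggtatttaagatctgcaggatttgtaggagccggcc
Slc25a30, chr14:75787038-75787287, minus strand: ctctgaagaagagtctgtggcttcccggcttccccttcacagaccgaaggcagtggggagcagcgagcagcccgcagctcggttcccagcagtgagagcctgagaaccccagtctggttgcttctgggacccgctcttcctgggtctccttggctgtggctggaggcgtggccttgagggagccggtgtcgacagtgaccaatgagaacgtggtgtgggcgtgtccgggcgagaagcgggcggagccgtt
Slc25a48, chr13:56438105-56438354, plus strand: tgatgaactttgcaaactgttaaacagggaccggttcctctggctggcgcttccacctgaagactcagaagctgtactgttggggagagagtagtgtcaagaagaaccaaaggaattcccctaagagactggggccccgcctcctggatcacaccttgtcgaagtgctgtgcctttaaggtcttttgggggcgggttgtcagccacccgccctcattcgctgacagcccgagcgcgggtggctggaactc
Slc25a33, chr4:149774268-149774517, minus strand: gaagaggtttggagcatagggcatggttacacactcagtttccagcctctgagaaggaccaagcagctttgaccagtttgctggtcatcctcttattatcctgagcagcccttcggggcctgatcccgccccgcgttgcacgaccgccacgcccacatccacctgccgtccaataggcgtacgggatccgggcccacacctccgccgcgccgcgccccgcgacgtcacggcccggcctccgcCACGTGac
Slc25a45, chr19:5877572-5877821, plus strand: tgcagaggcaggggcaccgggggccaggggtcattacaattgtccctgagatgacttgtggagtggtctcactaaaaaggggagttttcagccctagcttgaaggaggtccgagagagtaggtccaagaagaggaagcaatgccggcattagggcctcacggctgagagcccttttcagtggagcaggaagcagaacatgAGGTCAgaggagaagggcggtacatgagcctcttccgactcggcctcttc
Slc25a33 has an E-box from base -8 to -3. Slc25a47 has a core site, on the opposite strand, from -153 to -148, and Slc25a45 one from -50 to -45, while the windows of Slc25a30 and Slc25a48 hold none of the 8 letter strings. Over the whole windows, which run on past the start site, an E-box was found in 5 of 34 carriers (14.7%) and 7.24% of all 27025 promoters, and a core site in 4 carriers (11.8%) and 16% of all. The PPAR repeat was found in no carrier and 0.0444% of promoters, the ATF4 or C/EBP string in no carrier and 4.06%, NRF1 in no carrier and 0.977%, and NF-kappaB in no carrier and 1.17%. AP-1 was found in 2 carriers (5.88%; 7.93% of all) and CRE in 1 (2.94%; 1.88% of all). A match describes the letters only and is not a measured binding site.

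The carriers of ADP, ATP and phosphate did not move together. Of 8 such genes, 6 had a value with TGZ, and 1 was higher and 1 lower by 2-fold. Slc25a25, a calcium-regulated carrier that exchanges ATP-magnesium for phosphate, had scaled signals of 25.0 with vehicle, 74.2 with TGZ, 65.2 with BSO plus TGZ, 34.2 with RGZ and 51.7 with BSO plus RGZ. It was highest in the TGZ groups and lay between them and vehicle in the RGZ groups. Against vehicle it was 2.97-fold higher with TGZ (2.25 to 3.92), 2.61-fold with BSO plus TGZ (1.98 to 3.45), 1.37-fold with RGZ (1.04 to 1.81) and 2.07-fold with BSO plus RGZ (1.57 to 2.73). Its other 3 probes gave 1.57 to 1.78 on the log2 scale with TGZ and 0.57 to 0.74 with RGZ, close to the 1.57 and 0.45 of the brightest probe.

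Slc25a23, another ATP-magnesium carrier, gave the largest difference of any carrier, but only by its brightest probe. That probe read 1.71 with vehicle, 0.150 with TGZ, 0.606 with BSO plus TGZ, 1.73 with RGZ and 1.65 with BSO plus RGZ. It was 11.4-fold lower with TGZ (8.06 to 16.0) and 2.82-fold lower with BSO plus TGZ (2.13 to 3.74), and within 1.04-fold of vehicle in both RGZ groups. The array design assigns it to transcript ENSMUST00000165187, and the other probes of the gene to NM_025877. One of those was at -1.10 on the log2 scale with TGZ and -1.05 with BSO plus TGZ. The other was at -0.23 and -0.62. With BSO plus RGZ these probes were at -0.86 and -1.01, against -0.05 for the brightest. The 3 probes therefore disagree in size and in the groups where they were low. With normexp background correction the brightest probe gave -1.89 with TGZ, and the mean over the probes gave -1.61. The first 30 of the 60 bases of each probe are shown, 5′ to 3′ with mm9 coordinates as the array files give them, because they lie at different places in 1 gene. No base is capitalised. The Slc25a51 probes, which agreed in direction, follow.
Slc25a23 probe for ENSMUST00000165187, chr17:57195712-57195771, minus strand: aatgtgattagacaatacctgaagcctgaa
Slc25a23 probe for NM_025877, chr17:57183867-57183926, minus strand: tataccccaaatgtcactccccaagtctag
Slc25a23 probe for NM_025877, chr17:57186691-57186750, minus strand: aatcgctggcttcagcagtacagccacgaa
Slc25a51 probe for NM_001009949, chr4:45408957-45409016, minus strand: ccaggaaggcattcatgcttgggttcctta
Slc25a51 probe for ENSMUST00000134714, chr4:45420311-45420370, minus strand: taggaaccagtttatcagagttaagttagt
Which exon or untranslated region each probe lies in was not determined here.

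The other genes of this group stayed within 2-fold at their brightest probes. Slc25a4 and Slc25a5, both ADP/ATP translocases, lay between -0.15 and 0.08 on the log2 scale in the 4 treated groups. A second probe of Slc25a4 ran from -0.37 with BSO plus RGZ to 0.32 with TGZ. Slc25a3, which carries the phosphate used by ATP synthase, was 1.63-fold higher with TGZ (1.23 to 2.15) at its brightest probe. Another 2 probes of Slc25a3, assigned to other transcripts, gave 1.76 and 1.89 on the log2 scale with TGZ. Slc25a24, also an ATP-magnesium carrier, was at -0.65 with TGZ, -0.42 with BSO plus TGZ, -0.80 with RGZ and -0.49 with BSO plus RGZ.

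**Figure D2:**
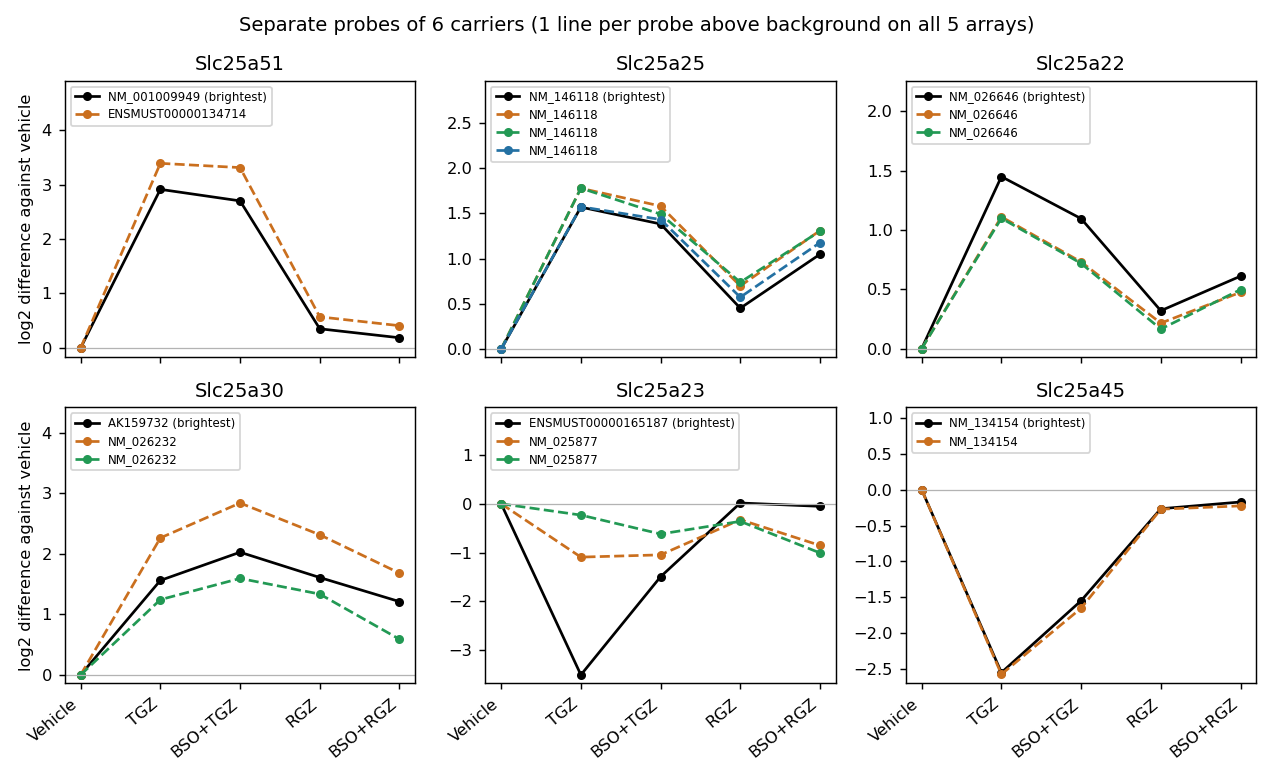
Log2 difference against vehicle (y axis) in the 5 groups (x axis) for every probe above background on all 5 arrays of 6 carriers, with the brightest probe as a solid black line and the others dashed; lines join values of 1 probe and carry no order between groups. The probes of Slc25a45 lie at -2.55 and -2.58 with TGZ, whereas those of Slc25a23 run from -3.51 to -0.23 with TGZ.

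Among carriers of nucleotides and cofactors, 2 of 9 were higher with TGZ by 2-fold and none was lower. Slc25a51, which brings NAD into mitochondria, had scaled signals of 13.8 with vehicle, 104 with TGZ, 89.8 with BSO plus TGZ, 17.6 with RGZ and 15.7 with BSO plus RGZ. Both TGZ arrays were high and both RGZ arrays near vehicle. It was 7.53-fold higher with TGZ (5.71 to 9.94) and 6.53-fold with BSO plus TGZ (4.95 to 8.62), the largest upward difference among the carriers in each of those comparisons. With RGZ it was 1.28-fold higher (0.968 to 1.68) and with BSO plus RGZ 1.14-fold (0.866 to 1.51), both intervals including no difference. Its second probe, assigned to ENSMUST00000134714, gave 10.5-fold, 9.95-fold, 1.49-fold and 1.33-fold in the same order.

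Slc25a33, a carrier of pyrimidine nucleotides, was likewise highest in the TGZ groups. Its scaled signals were 5.63 with vehicle, 21.0 with TGZ, 17.3 with BSO plus TGZ, 8.87 with RGZ and 8.23 with BSO plus RGZ. The single probe, at chr4:149118713-149118772 (mm9), gave 3.72-fold with TGZ (2.82 to 4.91), 3.07-fold with BSO plus TGZ (2.33 to 4.06), 1.58-fold with RGZ (1.20 to 2.08) and 1.46-fold with BSO plus RGZ (1.11 to 1.93). Slc25a36, the related pyrimidine nucleotide carrier, was at 0.37 with TGZ, 0.12 with BSO plus TGZ, -0.39 with RGZ and -0.71 with BSO plus RGZ on the log2 scale. A second measured probe of Slc25a36 gave -0.14, 0.62, 0.14 and -0.10 in the same order. Slc25a42, which carries coenzyme A, came close to 2-fold in the TGZ groups, at 0.91 and 0.97, and was at 0.55 and 0.60 in the RGZ groups. Its other probes, for ENSMUST00000134596 and ENSMUST00000150706, differed from it, at 0.80 and 0.28 with TGZ and at 1.53 and 0.59 with BSO plus TGZ. The folate carrier Slc25a32 was at 0.69 with TGZ and 0.07 with RGZ. Slc25a16, Slc25a17 (a peroxisomal member) and Slc25a26 (S-adenosylmethionine) lay between -0.51 and 0.43 in all 4 treated groups.

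Of 9 amino acid carriers, 3 were higher by 2-fold or more with TGZ, 3 with BSO plus TGZ, none was lower there, and none passed 2-fold against vehicle in either RGZ group. Slc25a22, a glutamate carrier, had scaled signals of 6.55 with vehicle, 17.9 with TGZ, 14.0 with BSO plus TGZ, 8.17 with RGZ and 10.0 with BSO plus RGZ. Its differences were 2.73-fold with TGZ (2.07 to 3.61), 2.14-fold with BSO plus TGZ (1.62 to 2.82), 1.25-fold with RGZ (0.944 to 1.64) and 1.53-fold with BSO plus RGZ (1.16 to 2.01). Its other 2 probes gave 0.73 and 0.72 on the log2 scale with BSO plus TGZ, short of 2-fold. Slc25a18, the second glutamate carrier, was dim. It read 0.126 with TGZ and 0.136 with BSO plus TGZ. It was not well above background on the other 3 arrays. Against vehicle it was higher by at least 2.26-fold with TGZ and by at least 2.43-fold with BSO added, by 1 of its 2 probes, and with normexp background correction these values were 0.46 and 0.39 on the log2 scale.

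Slc25a29, which carries basic amino acids, read 0.384 with vehicle, 1.10 with TGZ, 0.922 with BSO plus TGZ, 0.578 with RGZ and 0.666 with BSO plus RGZ. All 4 treated arrays were above vehicle and the TGZ arrays the highest, at 2.87-fold (2.16 to 3.83) and 2.40-fold (1.80 to 3.20). On the log2 scale it was at 0.59 with RGZ (0.17 to 1.01) and 0.79 with BSO plus RGZ (0.38 to 1.21). Normexp put it under 2-fold in the TGZ groups, at 0.98 and 0.78 on the log2 scale. Its gene lies near Slc25a47 on chromosome 12, with probes at chr12:110064375-110064434 and chr12:110094661-110094720 (mm9).

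The ornithine carrier Slc25a15, a part of the urea cycle, went opposite ways with the compounds. Its scaled signals were 3.07 with vehicle, 4.66 with TGZ, 3.79 with BSO plus TGZ, 2.02 with RGZ and 2.12 with BSO plus RGZ, so vehicle lay between the TGZ and the RGZ arrays. It was at 0.60 on the log2 scale with TGZ (0.20 to 1.00) and at -0.60 with RGZ, and neither interval includes 0. With spike-in scaling the TGZ value was 0.15 and the RGZ value -0.51. Slc25a2, a second ornithine carrier, was dim, at 0.111 with vehicle, 0.149 with BSO plus TGZ, 0.108 with RGZ and 0.150 with BSO plus RGZ, and not well above background with TGZ. Against vehicle it was lower with TGZ by at least 1.68-fold.

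The aspartate and glutamate carriers of the malate-aspartate shuttle did not pass 2-fold. Slc25a13, the main form in the liver, had scaled signals of 28.6 with vehicle, 28.4 with TGZ, 28.1 with BSO plus TGZ, 30.3 with RGZ and 20.6 with BSO plus RGZ. By its brightest probe it was within 1.06-fold of vehicle on 3 treated arrays and 1.39-fold lower with BSO plus RGZ (1.05 to 1.83). The second probe of Slc25a13 was lower in the TGZ groups too. It was 1.34-fold lower with TGZ, 1.46-fold with BSO plus TGZ and 1.32-fold with BSO plus RGZ, and at -0.01 on the log2 scale with RGZ. Slc25a12 is the form of muscle and brain. It read 3.34 with vehicle, 3.62 with TGZ, 4.16 with BSO plus TGZ, 3.13 with RGZ and 3.76 with BSO plus RGZ. At this brightest probe all intervals included no difference. Over its 5 measured probes the log2 difference ran from -0.00 to 0.41 with TGZ and from 0.25 to 0.52 with BSO plus TGZ. With RGZ it ran from -0.09 to 0.25 and with BSO plus RGZ from -0.10 to 0.38. The glycine carrier Slc25a38 was at -0.76 with TGZ and -0.17 with RGZ on the log2 scale, and Slc25a44, a carrier of branched-chain amino acids, at -0.23 and -0.13, with a second probe of Slc25a44 at -0.91 and -0.23.

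Of 3 dicarboxylate and oxoacid carriers, only 1 passed 2-fold against vehicle, with BSO plus RGZ. Slc25a21, which carries 2-oxoadipate from lysine breakdown, read 2.01 with vehicle, 1.20 with TGZ, 1.03 with BSO plus TGZ, 1.25 with RGZ and 0.887 with BSO plus RGZ. On the log2 scale it was at -1.18 with BSO plus RGZ (-1.58 to -0.78), -0.97 with BSO plus TGZ (-1.37 to -0.57), -0.75 with TGZ and -0.69 with RGZ. With normexp the BSO plus RGZ value was -0.94, short of 2-fold, and with the mean over its probes -0.72. The mean over probes also turned its TGZ values to 0.22 and, with BSO, 0.14. That mean takes in probes not well above background with vehicle. Its other measured probe gave -0.93 with TGZ, -0.89 with BSO plus TGZ, -1.12 with RGZ and -1.33 with BSO plus RGZ. The oxoglutarate carrier Slc25a11 lay between -0.42 and -0.63 in the 4 groups and the dicarboxylate carrier Slc25a10 between -0.06 and -0.38.

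Neither glutathione carrier passed 2-fold, with or without BSO. Slc25a39, needed for glutathione import into mitochondria, had scaled signals of 149.9 with vehicle, 151 with TGZ, 142 with BSO plus TGZ, 153 with RGZ and 148 with BSO plus RGZ. By its brightest probe the difference from vehicle was at most 1.05-fold. Adding BSO gave -0.09 on top of TGZ (-0.49 to 0.31) and -0.05 on top of RGZ (-0.44 to 0.35) on the log2 scale. Its second probe was 1.26-fold higher than vehicle with RGZ and 1.27-fold higher with BSO plus RGZ. In the TGZ groups that probe was at -0.02 and, with BSO, -0.01 on the log2 scale. Slc25a40, its paralog, read 0.384 with vehicle, 0.272 with TGZ, 0.253 with BSO plus TGZ, 0.294 with RGZ and 0.244 with BSO plus RGZ. All 4 treated arrays were below vehicle, by 1.30-fold to 1.57-fold.

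The mitoferrins, which bring iron into mitochondria, differed from each other. Slc25a28, mitoferrin 2 of most tissues, read 3.68 with vehicle, 6.77 with TGZ, 5.68 with BSO plus TGZ, 4.13 with RGZ and 5.25 with BSO plus RGZ. It was 1.84-fold higher with TGZ (1.39 to 2.43), 1.54-fold with BSO plus TGZ (1.17 to 2.03) and 1.42-fold with BSO plus RGZ (1.08 to 1.88). Slc25a37, mitoferrin 1, which red cell precursors need for heme, read 12.9 with vehicle, 13.1 with TGZ, 15.4 with BSO plus TGZ, 14.8 with RGZ and 15.9 with BSO plus RGZ, within 1.23-fold of vehicle throughout.

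The relatives of the uncoupling proteins went both ways. Slc25a30, a kidney mitochondrial carrier protein close to the uncoupling proteins, read 0.400 with vehicle, 1.18 with TGZ, 1.63 with BSO plus TGZ, 1.22 with RGZ and 0.926 with BSO plus RGZ. Vehicle was the lowest array. It was 2.94-fold higher with TGZ (2.21 to 3.91), 4.08-fold with BSO plus TGZ (3.07 to 5.42), 3.05-fold with RGZ (2.29 to 4.05) and 2.32-fold with BSO plus RGZ (1.74 to 3.08). That probe is assigned to AK159732, and 2 probes for NM_026232 gave log2 differences of 2.26 and 1.24 with TGZ. For RGZ these were 2.31 and 1.34, and for BSO plus RGZ 1.68 and 0.59. With normexp the BSO plus RGZ value was 0.80 on the log2 scale.

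Slc25a27, also called UCP4 and known from the brain, was dim and lower in the TGZ groups, with 0.263 with vehicle, 0.128 with TGZ, 0.0897 with BSO plus TGZ, 0.248 with RGZ and 0.231 with BSO plus RGZ. It was 2.06-fold lower with TGZ (1.41 to 3.01) and 2.93-fold lower with BSO plus TGZ (1.91 to 4.47). With normexp these were -0.16 and -0.41 on the log2 scale, so the call did not hold under that background correction. Slc25a14, or UCP5, was at -0.47 with TGZ and 0.31 with RGZ. The uncoupling proteins themselves belong to the same family under other names. Ucp2 was higher by 3.66-fold with TGZ, 3.83-fold with BSO plus TGZ and 1.24-fold with RGZ. Ucp3 gave 3.32-fold, 3.46-fold and 1.18-fold, while Ucp1 was not above background on any array.

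Of 9 carriers with no settled substrate or with a structural role, 7 had a value with TGZ, and 1 was higher and 3 lower by 2-fold. Slc25a47, made mainly in hepatocytes, had scaled signals of 92.6 with vehicle, 397 with TGZ, 406 with BSO plus TGZ, 271 with RGZ and 323 with BSO plus RGZ. All 4 treated arrays lay above vehicle, the RGZ arrays below the TGZ arrays. It was 4.28-fold higher with TGZ (3.24 to 5.65), 4.39-fold with BSO plus TGZ (3.32 to 5.79), 2.92-fold with RGZ (2.22 to 3.86) and 3.48-fold with BSO plus RGZ (2.64 to 4.60).

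Slc25a48, which has been linked to choline, was lower in every treated group. It read 1.22 with vehicle, 0.397 with TGZ, 0.319 with BSO plus TGZ, 0.428 with RGZ and 0.268 with BSO plus RGZ. It was 3.07-fold lower with TGZ (2.30 to 4.10), 3.83-fold with BSO plus TGZ (2.86 to 5.12), 2.85-fold with RGZ (2.15 to 3.79) and 4.56-fold with BSO plus RGZ (3.41 to 6.10), the largest downward difference of any carrier in each RGZ group. Its second probe was not above background on any array, and the mean over both gave -0.50 on the log2 scale with BSO plus TGZ.

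Slc25a45 was lower in the TGZ groups, with scaled signals of 12.5 with vehicle, 2.13 with TGZ, 4.27 with BSO plus TGZ, 10.4 with RGZ and 11.1 with BSO plus RGZ. It was 5.85-fold lower with TGZ (4.43 to 7.73) and 2.93-fold lower with BSO plus TGZ (2.22 to 3.86), and 1.20-fold lower with RGZ (0.913 to 1.59). Its second probe gave 5.97-fold and 3.15-fold lower. Slc25a35 read 0.168 with vehicle, 0.112 with RGZ and 0.138 with BSO plus RGZ, and was not well above background in either TGZ group by any of its 3 probes. It was lower by at least 2.53-fold with TGZ and by at least 2.81-fold with BSO plus TGZ, and with normexp these were -0.15 and -0.32 on the log2 scale. Slc25a34 read 2.23 with vehicle, 4.23 with TGZ, 3.63 with BSO plus TGZ, 2.24 with RGZ and 1.51 with BSO plus RGZ. It was 1.89-fold higher with TGZ (1.44 to 2.50), and 1.48-fold lower with BSO plus RGZ (interval -0.97 to -0.17 on the log2 scale), and its second probe gave 0.43 and -0.21 on the log2 scale. By their brightest probes, Slc25a46, an outer membrane protein of mitochondrial dynamics, and Slc25a43 lay between -0.24 and 0.24 in all 4 groups. A second probe of Slc25a46 was at 0.43 with TGZ, 0.11 with BSO plus TGZ, 0.41 with RGZ and -0.13 with BSO plus RGZ.

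**Figure D3:**
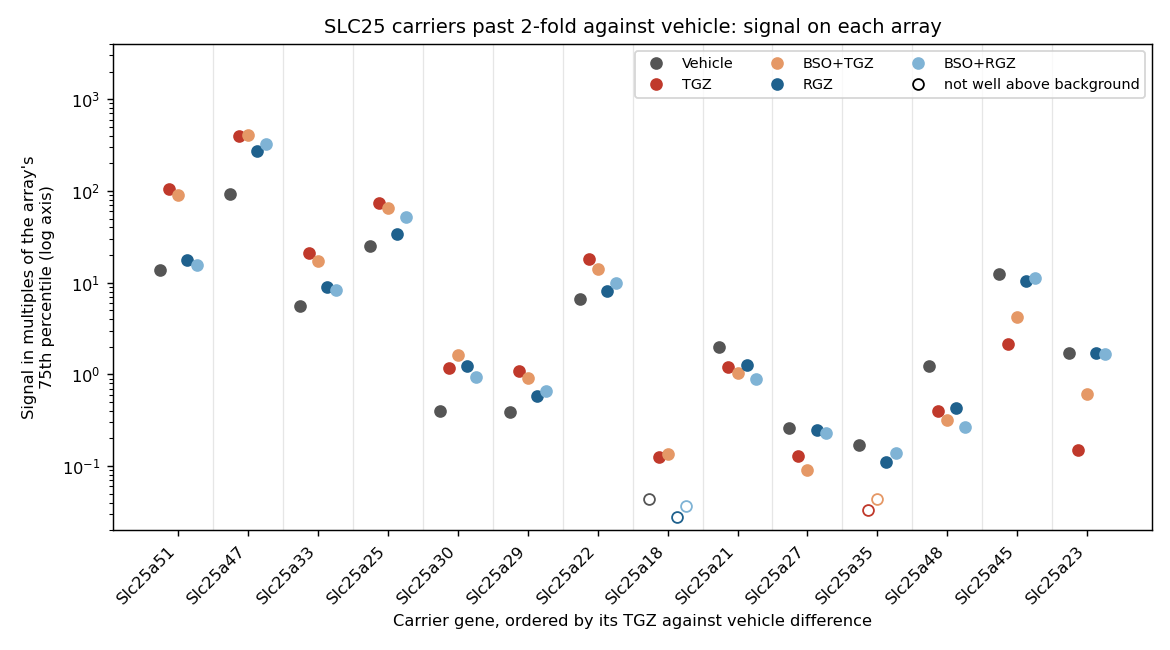
Scaled signal (y axis, log scale, multiples of the array's 75th percentile) on each of the 5 arrays for the 14 carriers at least 2-fold from vehicle in some treated group, ordered by their TGZ difference; each point is 1 array, and open circles are not well above background. Slc25a51 reads 104 with TGZ against 13.8 with vehicle, and Slc25a23 0.150 against 1.71.

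The comparison of the compounds at the same dose asks where TGZ and RGZ, which share the thiazolidinedione ring and differ in the side chain, gave different levels. Without BSO, 6 carriers were at least 2-fold higher with TGZ than with RGZ and 2 lower, 8 of 41 (19.5%, against 18.0% of all genes, 9.42% higher and 8.57% lower). With BSO in both groups, 4 were higher and 4 lower, again 8 of 41 (19.5%, against 13.6% of all genes, 8.33% higher and 5.28% lower). At 1.5-fold, 19 carriers passed without BSO and 12 with it, where 37.1% and 31.2% of all genes did. The share of the carriers without BSO lies close to that of all genes. The comparisons use 4 different arrays. Scaling to spike-in RNA changed the first split to 1 higher and 7 lower and the second to 2 higher and 5 lower.

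Slc25a51 differed most upward between the compounds, 5.90-fold higher with TGZ than RGZ (4.47 to 7.78) and 5.72-fold higher with BSO in both groups (4.33 to 7.54). Slc25a33 was 2.36-fold higher (1.79 to 3.12) and 2.10-fold higher (1.59 to 2.77), and Slc25a18 at least 2.53-fold and at least 2.56-fold. Slc25a45 was 4.86-fold lower with TGZ than with RGZ (3.68 to 6.42), and with BSO in both groups it was at -1.37 on the log2 scale (-1.77 to -0.97). By its brightest probe only, Slc25a23 was 11.5-fold lower (8.19 to 16.3) and 2.72-fold lower (2.06 to 3.61), while its NM_025877 probes were at -0.77 and 0.13 without BSO and -0.19 and 0.39 with it, on the log2 scale.

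Several carriers passed 2-fold between the compounds in 1 setting and not in the other. Slc25a15 was 2.31-fold higher with TGZ than with RGZ (1.75 to 3.04) and 1.78-fold higher with BSO in both groups (1.35 to 2.36). Slc25a22 went from 2.19-fold (1.66 to 2.89) to 1.40-fold (1.06 to 1.85), and Slc25a25 from 2.17-fold (1.65 to 2.86) to 1.26-fold (0.957 to 1.67). Slc25a34 was 1.89-fold higher without BSO (1.43 to 2.49) and 2.41-fold with it (1.83 to 3.18). Its second probe gave 1.16-fold without BSO and 1.38-fold with it, short of 2-fold. Slc25a27 was 1.94-fold lower (1.33 to 2.83) and 2.57-fold lower (1.68 to 3.94), and Slc25a35 was lower by at least 1.70-fold without BSO and by at least 2.31-fold with it.

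By their brightest probes, some of the other carriers differed between the compounds beyond spot error at under 2-fold, and some did not. Without BSO, Slc25a29 was at 0.93 on the log2 scale (0.53 to 1.34), Slc25a3 at 0.84 (0.44 to 1.24), Slc25a36 at 0.76 (0.31 to 1.20), Slc25a28 at 0.72 (0.32 to 1.12) and Slc25a14 at -0.79 (-1.19 to -0.39). A second measured probe of Slc25a36 went the other way, at -0.27. The probes of Slc25a3 assigned to other transcripts passed 2-fold, at 2.22 and 1.59 without BSO and at 1.68 and 1.21 with it. Its remaining probe was at 0.87 without BSO and 0.42 with it. Slc25a30 was at -0.05 on the log2 scale without BSO (-0.45 to 0.35), although it was 1.76-fold higher with TGZ when both groups had BSO (1.33 to 2.33), and its NM_026232 probes were then at 1.16 and 1.00 on the log2 scale. Slc25a48 was at -0.11 (-0.53 to 0.31) and 0.25 (-0.18 to 0.69), and Slc25a39 at -0.01 (-0.41 to 0.39) and -0.06 (-0.46 to 0.34). Slc25a47 was 1.46-fold higher with TGZ than RGZ (1.11 to 1.93) and 1.26-fold with BSO (0.954 to 1.66). An interval that includes 0 does not show that the compounds act alike.

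**Figure D4:**
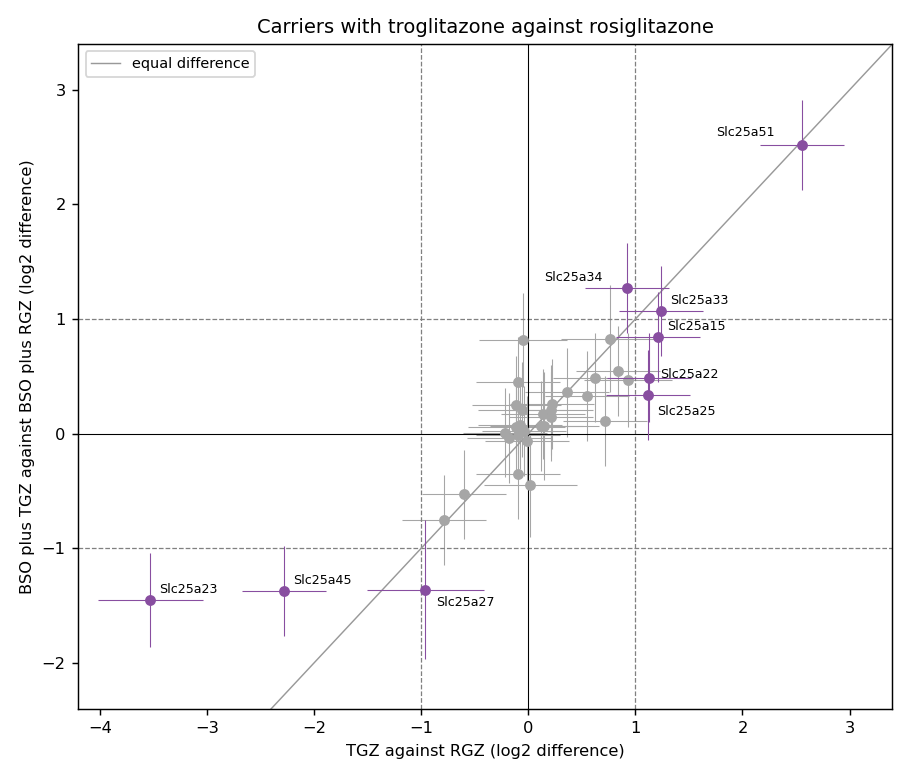
Log2 difference of carriers between TGZ and RGZ (x axis) and between BSO plus TGZ and BSO plus RGZ (y axis), which rest on 4 different arrays; bars are 95% intervals of spot error, purple points pass 2-fold (dashed lines) on at least 1 axis, and carriers with only a bound, and 1 other, are left out. Slc25a51 lies close to the line of equal difference at 2.56 and 2.52, and Slc25a23 and Slc25a45 lie above it at -3.53 and -1.45, and -2.28 and -1.37.

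The addition of BSO to each compound asks what blocking glutathione synthesis changed. On top of TGZ, 3 of 40 carriers were higher by 2-fold or more and none was lower, against 2.07% of all genes in either direction (1.57% higher and 0.500% lower), and with normexp none passed. On top of RGZ, none of 40 passed, where 1.25% of all genes did (0.532% higher and 0.716% lower). At 1.5-fold, 3 carriers passed on top of TGZ and 2 on top of RGZ, where 8.65% and 7.11% of all genes did. By its brightest probe, Slc25a23 was 4.03-fold higher with BSO plus TGZ than with TGZ (2.85 to 5.69), at 0.606 against 0.150, still below the 1.71 of vehicle. Its NM_025877 probes were at 0.05 and -0.39 on the log2 scale. Slc25a45 was at 1.00 on the log2 scale (0.60 to 1.40), at the limit itself, and its second probe at 0.92. Slc25a2 was at least 2.25-fold higher, because it was not well above background with TGZ.

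The effect of BSO with TGZ minus that with RGZ could be computed for 38 carriers and lay beyond spot error for 6 of them (15.8%, against 11.4% of all genes). For Slc25a23 the difference was 2.08 on the log2 scale (1.44 to 2.72) by its brightest probe. Its NM_025877 probes were at 0.05 and -0.39 with BSO on TGZ and at -0.53 and -0.65 with BSO on RGZ. For Slc25a45 the difference was 0.91 (0.34 to 1.47). Slc25a30 was at 0.47 when BSO was added to TGZ and -0.40 when added to RGZ. Slc25a25 was at -0.19 and 0.60, Slc25a22 at -0.35 and 0.29, and Slc25a28 at -0.25 and 0.35, each lower with BSO on TGZ and higher with BSO on RGZ. The NM_026232 probes of Slc25a30 were at 0.58 and 0.35 with BSO on TGZ and at -0.63 and -0.75 with BSO on RGZ. At the brightest probes, most values of these last 4 carriers had intervals that include 0. The exceptions were Slc25a30 with TGZ (0.07 to 0.87) and Slc25a25 with RGZ (0.20 to 1.00). BSO on RGZ also gave values below 0 beyond spot error for Slc25a48 at -0.68 (-1.10 to -0.25), Slc25a34 at -0.57 (-0.97 to -0.17), Slc25a13 at -0.56 (-0.96 to -0.16) and Slc25a21 at -0.49 (-0.89 to -0.09).

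**Figure D5:**
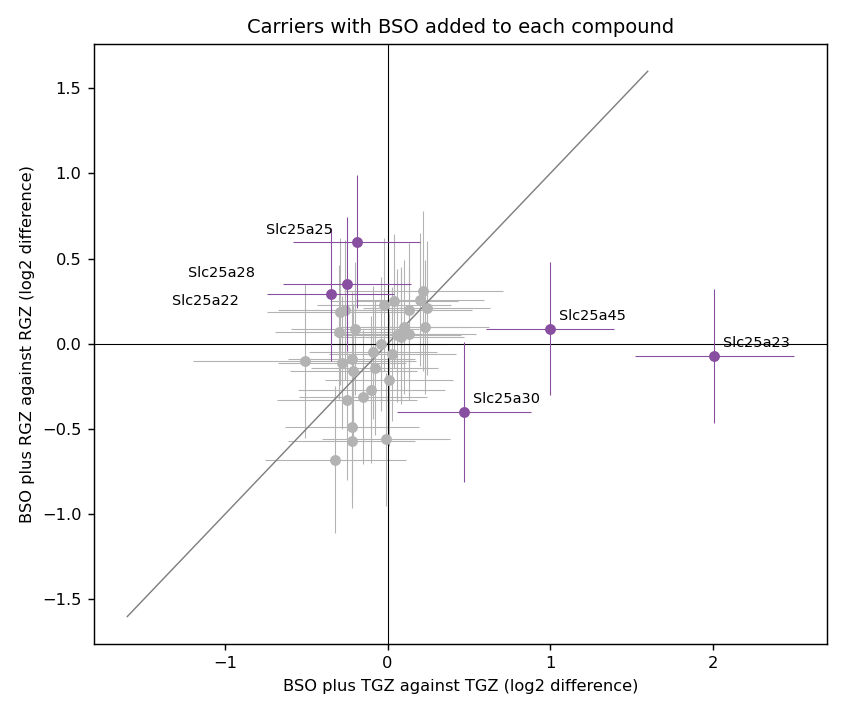
Log2 difference from adding BSO to TGZ (x axis) and to RGZ (y axis) for the 38 carriers measured on all 4 arrays, with 95% intervals of spot error and a line of equal effect; purple points are the 6 carriers whose effects differ beyond spot error. By their brightest probes, Slc25a23 lies at 2.01 and -0.07 and Slc25a45 at 1.00 and 0.09.

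In each of 5 lists of genes that act beside the carriers, 1 gene passed 2-fold against vehicle with TGZ, where 19.6% of all genes did. Of 8 genes of the TIM22 route, which inserts carriers into the inner membrane, only the chaperone Timm10 passed, 2.44-fold higher with TGZ and 2.07-fold with BSO plus TGZ. Of 7 outer membrane pores and import receptors, only Tomm20 passed, 2.23-fold and 2.03-fold higher. Of 11 genes for the pyruvate carrier, sideroflexins and the calcium uniporter, only Sfxn5 passed against vehicle, 2.23-fold lower with TGZ. Sfxn3 reached 1.00 on the log2 scale between BSO plus TGZ and BSO plus RGZ. No gene of these 3 lists passed 2-fold against vehicle in an RGZ group. Of 4 enzymes of the malate-aspartate shuttle, only Got1, the cytosolic aspartate aminotransferase, passed against vehicle. Its scaled signals were 82.7 with vehicle, 577 with TGZ, 414 with BSO plus TGZ, 30.5 with RGZ and 34.6 with BSO plus RGZ, so it was 6.97-fold and 5.01-fold higher with the TGZ groups and 2.71-fold and 2.39-fold lower with the RGZ groups. Of 6 regulators of mitochondrial genes, only Ppargc1a, a coactivator that drives mitochondrial and gluconeogenic genes, passed against vehicle, 5.37-fold higher with TGZ and 3.85-fold with BSO plus TGZ. It was 1.59-fold lower with RGZ and 1.72-fold lower with BSO plus RGZ, short of 2-fold.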

How the data were processed

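Liver RNA of 5 groups, each a pool of 6 animals, was hybridised to 5 single-colour Agilent arrays. Per the file headers, spots were read with Agilent Feature Extraction 12.0.3.1, and the deposited processed intensity is background-subtracted, with its error and flags beside it. The authors' deposited log2 table equals log2 of that intensity plus a constant per array of 7.47 to 7.48, so its direction is that of the signal (column medians 3.92 to 4.08). What software did that scaling was not given in the sources used here.

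Spots of a probe were averaged, signals were divided by each array's 75th percentile, and log2 was taken. A gene was read from the probe with the highest mean over 5 arrays. A probe not well above background on 1 side gives a bound, written "at least": the brighter signal over the higher of the dim signal and the lowest signal well above background on that array. With 1 array per group no test was possible, and a difference counted from 2-fold. Intervals are 1.96 times the combined spot error, which covers the scanner's error only. Carriers were named where they passed 2-fold in any of 8 comparisons, with both glutathione, iron and aspartate/glutamate carriers added, the farthest of each role from the rest, and of other lists genes past 2-fold. The members and lists were chosen with earlier results of these data known. Of 10 alternatives, 9 were listed at the start, among them normexp (offset 50) with limma 3.58.1 in R 4.3.3; the tenth, the brightest probe of a curated RefSeq transcript, was chosen after seeing the data. Python 3.11.15, numpy 2.4.6, pandas 2.3.3 and matplotlib 3.10.9 were used. Promoters came from the RefSeq table (GRCm38.p6), matched by symbol. Values of a few genes are not reported here.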

Additional observations from a re-analysis of the deposited data

Results flagged for a closer look

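For 2 carriers the values with the compounds lay on opposite sides of vehicle with both 95% intervals of spot error leaving out 0; others, such as Slc25a36 and Slc25a14, lay on opposite sides without meeting that condition. Slc25a15, the ornithine carrier, was at 0.60 on the log2 scale with TGZ and -0.60 with RGZ. Slc25a34 was at 0.70 with BSO plus TGZ and -0.57 with BSO plus RGZ. With spike-in scaling these were 0.15 and -0.51 for Slc25a15, and 0.51 and -0.44 for Slc25a34. In the main scaling the second probe of Slc25a34 was nearer to vehicle, at 0.26 with BSO plus TGZ and -0.21 with BSO plus RGZ. Each group is 1 array, the values share the vehicle array, and the difference was not tested.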

How the results depend on the processing

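Of 34 calls against vehicle, 20 passed 2-fold in every setting that gave a value, and none of the 34 turned its direction. Counts of carriers past 2-fold moved by over 1.5 times as follows. Normexp gave 3 with BSO plus RGZ (5 before), 0 for BSO plus TGZ against TGZ (3), 5 for TGZ against RGZ (8) and 5 for BSO plus TGZ against BSO plus RGZ (8). The mean over probes gave 1 for BSO plus TGZ against TGZ and 4 for BSO plus TGZ against BSO plus RGZ. A limit of 1.5-fold gave 24 with TGZ, 20 with BSO plus TGZ, 8 with RGZ, 11 with BSO plus RGZ, 2 for BSO plus RGZ against RGZ and 19 for TGZ against RGZ. The curated RefSeq probe kept 29 of 33 calls and ended those of Slc25a23 with TGZ (-0.23) and BSO plus TGZ (-0.62), Slc25a35 with TGZ (-0.90) and Slc25a18 with BSO plus TGZ (0.12). The cause was not tested. Dim carriers (Slc25a18, Slc25a27, Slc25a35) lost their calls with normexp. No paired analysis was possible because each group has 1 array. With no replicates, no replicate could be left out.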
